A study of Mus musculus with 8 samples.

Results

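The interleukin-22 (IL-22) receptor and its STAT3 pathway were followed in purified mouse Paneth cells as 7 genes, picked for their place in the pathway: the receptor chains Il22ra1 and Il10rb, the kinases Jak1 and Tyk2, the transcription factor Stat3, the feedback inhibitor Socs3 and the fucosyltransferase Fut2. They were read from a table of 55414 gene IDs by symbol, and all 7 passed the low-count filter that left 11988 genes for testing. Paneth cells were sorted by flow cytometry from the small intestine of C57BL/6J mice with no other genetic change named. The 4 mice of the water group drank Milli-Q (ultrapure) water, and the 4 mice of the zinc group drank water with 25 mM ZnSO4, both for 7 days. The labels give neither age nor sex. Libraries were made from total RNA with a stranded mRNA kit and are named here by group and replicate number (water 1 to water 4, zinc 1 to zinc 4).

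IL-22 is released by lymphoid cells of the gut wall and acts on epithelium through a receptor of IL-22RA1, the chain that gives specificity, and IL-10RB, which is shared with other cytokines. Binding activates the kinases JAK1 and TYK2, STAT3 is phosphorylated and moves to the nucleus, and its targets include Socs3, whose protein shuts the receptor off again, and genes of epithelial defence such as the C-type lectins Reg3b and Reg3g. Fut2 encodes an enzyme that adds fucose to surface and mucus glycans and is known as an IL-22 responsive gene of the intestinal epithelium. The steps between receptor and nucleus are changes in protein phosphorylation, which RNA counts do not measure.

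To show the DNA upstream of the pathway genes, the 250 bases before the start of 2 receptor or feedback members and of the 2 Reg3 lectins were taken from RefSeq (GRCm38.p6), each written 5′ to 3′ on the strand of the gene. Capitals mark a palindromic STAT site, TTCNNNGAA, or the core of a metal response element, searched on both strands as TGCACNC and TGCGCNC. The Il22ra1 window (chr4:135727909-135728158, plus strand) is shown as the specific receptor chain, Socs3 (chr11:117969367-117969616, minus strand) as the feedback gene, and Reg3b (chr6:78370635-78370884, plus strand) and Reg3g (chr6:78468875-78469124, minus strand) as downstream lectins.
Il22ra1: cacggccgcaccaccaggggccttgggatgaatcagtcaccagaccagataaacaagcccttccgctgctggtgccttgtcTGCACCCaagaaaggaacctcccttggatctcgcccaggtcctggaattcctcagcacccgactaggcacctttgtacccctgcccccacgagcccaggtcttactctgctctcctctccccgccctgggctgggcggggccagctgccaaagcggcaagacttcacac
Socs3: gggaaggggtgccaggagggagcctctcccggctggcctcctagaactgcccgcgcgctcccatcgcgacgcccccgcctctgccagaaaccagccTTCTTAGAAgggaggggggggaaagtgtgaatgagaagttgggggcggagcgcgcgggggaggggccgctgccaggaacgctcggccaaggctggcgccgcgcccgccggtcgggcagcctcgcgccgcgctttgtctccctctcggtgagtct
Reg3b: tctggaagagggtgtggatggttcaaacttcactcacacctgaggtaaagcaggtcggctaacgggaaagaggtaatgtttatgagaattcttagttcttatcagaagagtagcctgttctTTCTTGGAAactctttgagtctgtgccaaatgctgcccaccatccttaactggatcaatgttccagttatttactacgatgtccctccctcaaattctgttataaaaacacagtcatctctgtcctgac
Reg3g: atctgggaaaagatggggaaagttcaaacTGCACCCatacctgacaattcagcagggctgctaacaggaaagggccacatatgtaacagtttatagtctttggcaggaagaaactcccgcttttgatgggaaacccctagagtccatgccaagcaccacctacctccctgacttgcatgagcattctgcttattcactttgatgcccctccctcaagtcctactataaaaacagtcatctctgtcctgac
TTCNNNGAA began 154 bases before the start of Socs3 as TTCTTAGAA and 129 bases before that of Reg3b as TTCTTGGAA, and these letters were not in the Reg3g window. This motif was in 8.30% of the 32851 windows of the RefSeq table, each of which ran from 250 bases before to 50 bases after a start. TGCACCC began 169 bases before the start of Il22ra1 and 221 bases before that of Reg3g, and TGCACNC was in 12.6% of windows. Among the 5 of 7 members with a window, TGCGCNC, present in 15.4% of windows, was found at Jak1 and Tyk2, 25 and 7 bases before the start, and none of the searched motifs was found at Stat3. Il10rb and Fut2 had no window in the table. These matches are letters in DNA, and binding was not measured.

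Library totals ran from 20760764 to 24117111 counts. Levels are given in CPM, a gene’s counts relative to the size of its library, on the TMM scale, in which each library size is corrected by a factor that ran from 0.764 in water 1 to 1.23 in zinc 4. The factor ran opposite to the share of counts taken by the α-defensin (Defa) genes, which was highest in both replicates numbered 1 (39.9% in water, 38.5% in zinc) and lowest in both replicates numbered 4 (29.2% and 27.9%). Markers of the sorted cell were abundant, with the lysozyme gene Lyz1 at 119900 to 225320 CPM. Of 9 immune markers, Cd3e, Cd3g, Itgax and Il7r had no count in any library, and 4 of 7 stromal markers had none. Zinc exposure was visible in the metallothionein genes Mt1 and Mt2, which bind zinc and rose by 3.65 and 6.15 on the log2 scale (edgeR adjusted p = 0.0259 and 0.0198).

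None of the 7 genes passed the edgeR quasi-likelihood test for a change with zinc, with Benjamini-Hochberg adjustment over all 11988 genes, in which 0.0834% of genes were past the threshold of 0.05. Each member had an adjusted p of 0.998, and in all of them the zinc and water libraries overlapped. The width of the intervals set the genes apart. Il10rb, Jak1, Tyk2 and Stat3 had 95% intervals of the fold of zinc over water that lay within 0.765 and 1.38, whereas those of Socs3 and Fut2 ran from 0.210 to 1.23 and from 0.187 to 1.04. Il22ra1 alone had an unadjusted p below 0.05 in the downward direction, 1 of 7 members beside 2.81% of all tested genes. A negative log2 fold change was found for 5 members (71.4%, beside 48.1% of all tested genes). The median over the 7 was -0.06, beside 0.01 over all tested genes. In bulk libraries, fewer cells of a type and less RNA per cell cannot be told apart.

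**Figure D1:**
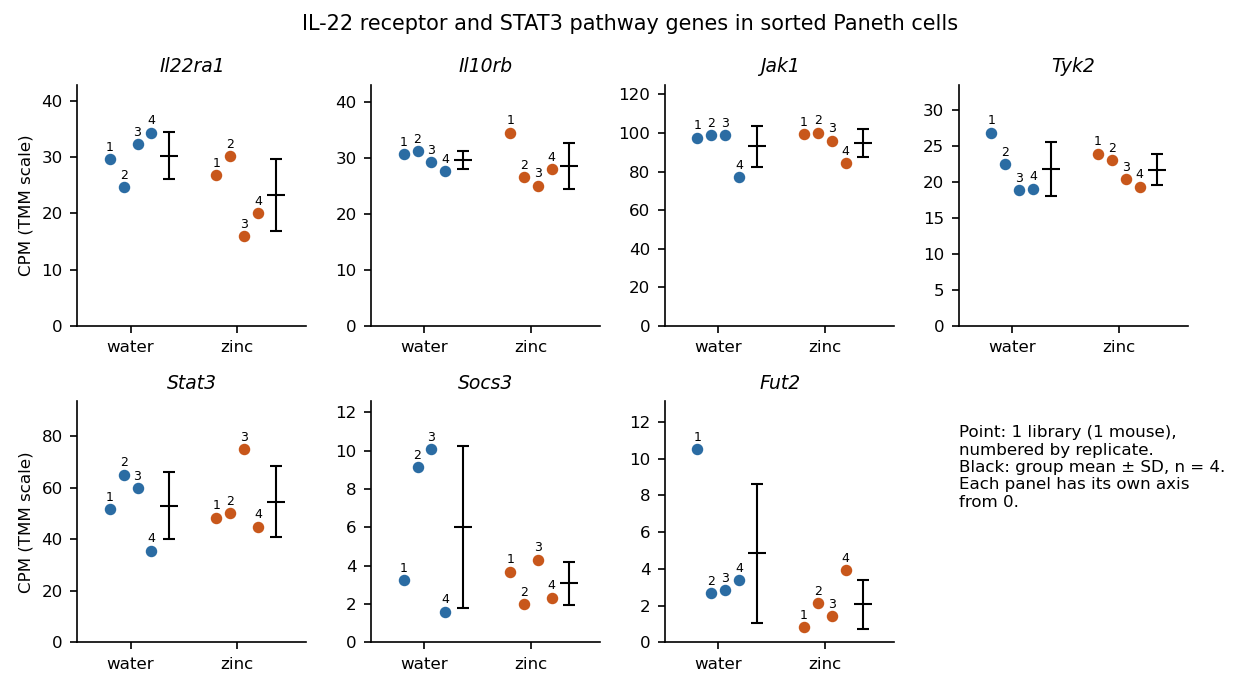
Level of each of the 7 genes in CPM on the TMM scale (y axis from 0, separate for each gene) in the 4 water and 4 zinc libraries; points are libraries with their replicate number, and black marks give the group mean ± SD. Relative to their means, Il10rb, Jak1 and Tyk2 spread less in both groups than Socs3 and Fut2. Socs3 was highest in water 2 and water 3, and Fut2 was highest in water 1.

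Il22ra1 (chr4:135455428-135479451 on GRCm39, plus strand, 7 merged exons) was at 29.6, 24.7, 32.3 and 34.3 CPM in water 1 to 4 and at 26.7, 30.1, 16.0 and 20.01 CPM in zinc 1 to 4. The lowest pair was zinc 3 and zinc 4, while zinc 1 and zinc 2 lay within the range of the water libraries. Group means were 30.2 ± 4.17 CPM in water and 23.2 ± 6.40 CPM with zinc (SD, n = 4), a log2 fold change of -0.39 (SE 0.18, 95% interval -0.76 to -0.01, edgeR unadjusted p = 0.0439, adjusted p = 0.998). With each library left out in turn the log2 fold change stayed negative, from -0.54 without zinc 2 to -0.25 without zinc 3.

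Il10rb (chr16:91203012-91224600, plus strand), the shared chain, varied least of the members among the water libraries. Its levels were 30.7, 31.3, 29.4 and 27.7 CPM with water and 34.6, 26.7, 25.1 and 28.0 CPM with zinc. The coefficient of variation among water libraries was 5.37%, close to the 3.96% that counting error alone would give at its counts. Among zinc libraries it was 14.5%, against 4.07% from counting error alone. The log2 fold change was -0.06 (SE 0.12, 95% interval -0.32 to 0.20, edgeR adjusted p = 0.998).

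The other receptor genes were given by a list of 21 that includes both chains. Il22ra2, which encodes the secreted decoy receptor of IL-22, had 0 counts in all 8 libraries, as did Il10ra, the specific chain of the IL-10 receptor, and Il20ra, a partner chain for related cytokines. With a floor of 3 counts, an unseen gene could have had a level of up to 0.114 to 0.188 CPM in these libraries, a limit that covers counting error only because the libraries held no molecular identifiers. Osmr, the oncostatin M receptor chain, was at or below 10 counts and was not tested. Of the 21, 15 were tested, 0 passed the threshold, and 3 had an unadjusted p below 0.05 with a lower zinc mean (beside 2.81% of all tested genes): Il22ra1 and both chains of the interferon-γ receptor. Ifngr1 was at 28.8 to 51.9 CPM in water and 24.4 to 32.0 CPM in zinc libraries (log2 fold change -0.45, SE 0.16, edgeR adjusted p = 0.881). Ifngr2 was at 26.9 to 42.2 CPM in water and 25.8 to 28.0 CPM in zinc libraries (log2 fold change -0.37, SE 0.14, edgeR adjusted p = 0.998).

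Transcripts of the ligands were nearly absent from these sorted cells. Il22 had 0 counts in every library, and so did 9 others of 13 cytokine genes, among them Il10, Il6 and Osm. Only Lif, a cytokine of the IL-6 family, had enough counts to be tested, at no more than 1.69 CPM (log2 fold change 0.03, SE 0.49, edgeR adjusted p = 0.998).

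Jak1 (chr4:101008838-101122487, minus strand), the kinase bound to IL-22RA1, had the highest CPM of the 7 genes. It was at 97.5, 98.7, 98.7 and 77.1 CPM in water 1 to 4 and at 99.2, 100.1, 96.0 and 84.4 CPM in zinc 1 to 4. Replicate 4 was the lowest library of each group. The log2 fold change was 0.03 (SE 0.11, 95% interval -0.21 to 0.27, edgeR adjusted p = 0.998), and it was -0.05 without water 4.

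Tyk2 (chr9:21015363-21042689, minus strand), the kinase of the shared chain, was at 26.9, 22.5, 18.9 and 19.1 CPM with water and at 24.0, 23.1, 20.4 and 19.4 CPM with zinc. Replicate 1 was the highest library of each group, and the 2 libraries numbered 1 also had the lowest TMM factors (0.764 and 0.775) and the highest Defa shares. Over the 8 libraries log2 CPM of Tyk2 ran against the log2 TMM factor, by which CPM is divided (Pearson r = -0.90, exact permutation p = 0.000719, adjusted p = 0.00647; Spearman rho = -0.90, exact permutation p = 0.00456, adjusted p = 0.0411; adjusted over 9 genes). The r was -0.93 within water, -0.90 within zinc and -0.75 without water 1 and zinc 1. Of the other members, and Reg3b and Reg3g, none passed this correction. Because CPM is divided by the factor, a gene with a steady share of its library total would also give a negative r. These p-values therefore do not show a trait of Tyk2. The log2 fold change was -0.01 (SE 0.14, 95% interval -0.30 to 0.29, edgeR adjusted p = 0.998), and its sign turned with library totals as the only scaling. The JAK family list held 2 further kinases, Jak2 at 19.3 to 34.3 CPM and Jak3 at 2.79 to 6.63 CPM, and 0 of its 4 members passed the threshold.

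Stat3 (chr11:100775924-100830450, minus strand) was at 51.7, 65.1, 59.9 and 35.6 CPM in water 1 to 4. In zinc 1 to 4 it was at 48.3, 50.02, 74.9 and 44.8 CPM. The highest and the lowest of all 8 libraries were thus zinc 3 and water 4, and both groups had a coefficient of variation near 25% (24.3% and 25.2%) where counting error alone would give 2.97% and 2.90%. Group means were 53.0 ± 12.9 and 54.5 ± 13.7 CPM (SD, n = 4), and their log2 fold change was 0.04 (SE 0.20, 95% interval -0.39 to 0.47, edgeR adjusted p = 0.998). Without zinc 3 it was -0.16 and without water 4 it was -0.11, so its direction rested on single libraries.

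Of the 7 STAT genes, 6 were tested and 0 passed the threshold, with 3 log2 fold changes on either side of 0. Stat4, which acts mainly in lymphocytes, had at most 1 count in a library. Stat6, the factor of IL-4 and IL-13 signalling, was at 45.0 to 58.7 CPM. Stat5a had the smallest unadjusted p of the family, with 3.21 to 5.12 CPM in water and 1.72 to 4.10 CPM in zinc libraries (log2 fold change -0.50, SE 0.29, edgeR adjusted p = 0.998). Stat5a lies on the opposite strand to Stat3, and the spans of the 2 genes overlap by 142 bases. The labels and methods do not say whether the counting used strand, so reads in those bases cannot be assigned with certainty, and reads may also be split between Stat5a and its close copy Stat5b.

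Socs3 (chr11:117856905-117860898, minus strand), the feedback inhibitor, was counted 52, 213, 238 and 42 times in water 1 to 4, or 3.25, 9.15, 10.1 and 1.60 CPM. In zinc 1 to 4 it had 62, 41, 109 and 60 counts, or 3.68, 1.98, 4.31 and 2.33 CPM. Water 2 and water 3 stood above all zinc libraries, and water 4 was the lowest of the 8. Its coefficient of variation among water libraries was 70.1%, against 8.65% from counting error alone. The log2 fold change was -0.97 (SE 0.56, 95% interval -2.25 to 0.30, edgeR unadjusted p = 0.117, adjusted p = 0.998), from -1.30 without water 4 to -0.61 without water 3.

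All 17 listed regulators of the pathway (SOCS proteins, PIAS proteins, phosphatases and a STAT3-binding mitochondrial protein) were tested, 0 passed the threshold, and 9 had a negative and 8 a positive log2 fold change. Socs5, another SOCS family gene, had the smallest p. Its zinc libraries lay above all water libraries, at 7.58 to 9.62 CPM against 5.03 to 7.07 CPM. Such a separation upward was found for 1 of the 17 regulators, beside 149 of all 11988 tested genes. The log2 fold change of Socs5 was 0.52 (SE 0.18, edgeR unadjusted p = 0.00868, adjusted p = 0.867). Pias4, a SUMO ligase that restrains STAT proteins, followed at -0.24 on the log2 scale (SE 0.13, edgeR adjusted p = 0.998).

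Fut2 (chr7:45298015-45315818, minus strand) had the lowest mean CPM of the 7 genes over the 8 libraries, 3.46, but not the lowest value in every library. It had 168, 62, 67 and 89 counts in water 1 to 4, or 10.5, 2.66, 2.83 and 3.40 CPM. In zinc 1 to 4 there were 14, 44, 36 and 101 counts, or 0.831, 2.12, 1.42 and 3.92 CPM. Water 1 stood far above the others, and zinc 4 lay above the other 3 water libraries. The log2 fold change was -1.18 (SE 0.56, 95% interval -2.42 to 0.06, edgeR unadjusted p = 0.0594, adjusted p = 0.998), and without water 1 it was -0.50.

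A list of 19 fucosylation genes gave no call either. Of its 16 tested genes, 4 had a negative log2 fold change (25.0%, beside 48.1% of all tested genes). The other 12 had a positive one, and the median of the 16 was 0.07. Besides Fut2, the smallest p belonged to Fut11 (listed as Pofut4 in GENCODE M39), a fucosyltransferase, at 0.34 on the log2 scale (SE 0.18, edgeR adjusted p = 0.998), and to Gmds, the first enzyme of GDP-fucose synthesis, at 0.16 (SE 0.14, edgeR adjusted p = 0.998). Fut1, the close relative of Fut2 that also makes the H antigen, was at 13.2 to 16.4 CPM in water and 7.39 to 20.2 CPM in zinc libraries.

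Downstream of STAT3, the lectins Reg3b and Reg3g had lower values in every zinc library than in any water library, but neither passed the threshold over all genes. Reg3b was at 211, 261, 154 and 145 CPM in water 1 to 4 and at 38.1, 30.9, 131 and 11.0 CPM in zinc 1 to 4. Zinc 3 came close to the lowest water library, and the other zinc libraries lay far below it. Its log2 fold change was -1.87 (SE 0.75, 95% interval -3.70 to -0.04, edgeR unadjusted p = 0.0467, adjusted p = 0.998). Reg3g was at 1382, 2040, 1175 and 914 CPM in water 1 to 4 and at 837, 425, 758 and 329 CPM in zinc 1 to 4. Water 4 and zinc 1, the closest libraries of the 2 groups, were 914 and 837 CPM. Its log2 fold change was -1.23 (SE 0.34, 95% interval -2.01 to -0.46, edgeR unadjusted p = 0.00570, adjusted p = 0.794), and over the alternatives its adjusted p ran from 0.0382, with library totals as the only scaling, to 1.00. Reg3b and Reg3g are close copies, and the labels and methods do not say how reads that map to both were counted.

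The 2 lectins belong to a list of 45 genes known to respond to IL-22 or STAT3, which also holds Socs3 and Fut2. Of the 45, 4 had no count, among them S100a8 and S100a9, and 29 were tested. None passed the threshold. Among the 29, 25 had a negative log2 fold change (86.2%, beside 48.1% of all tested genes). An unadjusted p below 0.05 in that direction was found for 8 of the 29 (27.6%, beside 2.81% of all tested genes). All zinc libraries lay below all water libraries for 6 of the 29 (20.7%, beside 1.59% of all tested genes). The median log2 fold change of the 29 was -0.39, and it was -0.34 over the 27 tested genes other than Socs3 and Fut2. Nos2 and Icam1 reached the count filter in fewer than 4 zinc libraries and Reg1 in fewer than 4 water libraries, so the tested genes are not a sample of the list that is blind to the groups. The list was also chosen with earlier results of these data known, so its shares are not independent support for an effect of zinc. Without a filter, 36 of 41 genes with any count had a negative log2 fold change, but the share over all unfiltered genes was not computed.

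**Figure D2:**
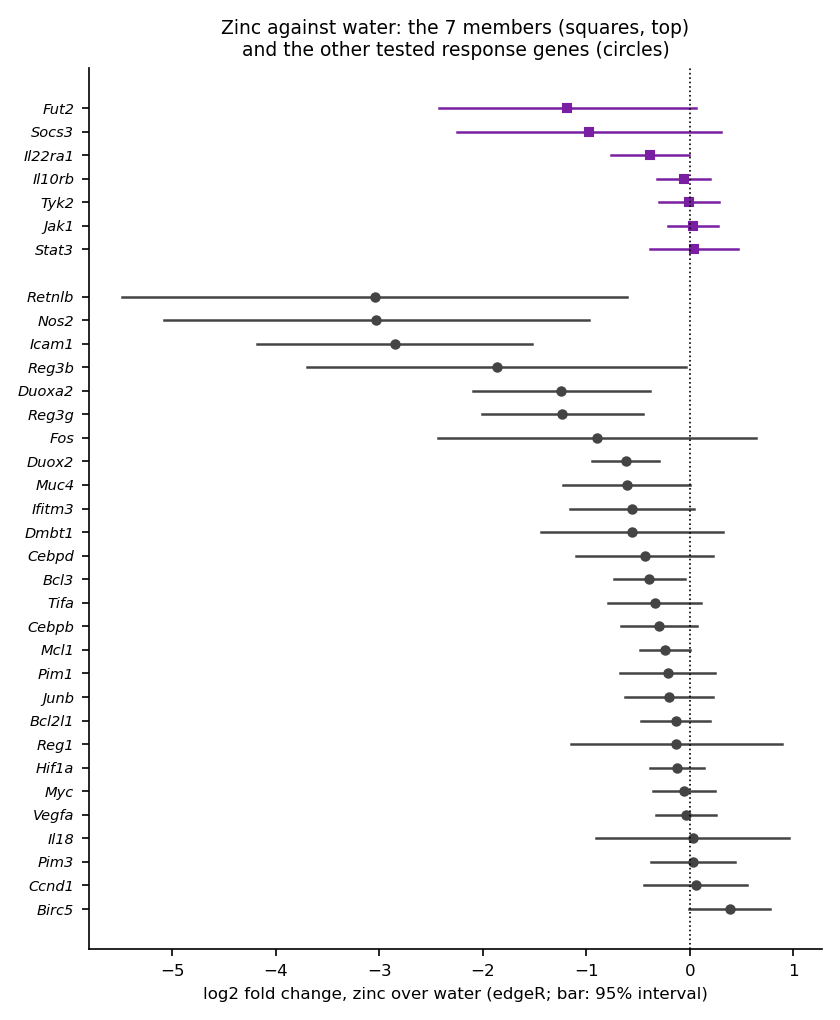
Log2 fold change of zinc over water (x axis) with its 95% interval from edgeR for the 7 members (squares, top) and the other tested genes of the response list (circles), each group ordered by value; the dotted line marks no difference. Il10rb, Tyk2, Jak1 and Stat3 lay close to 0 with short intervals. The long intervals at the left belonged to genes of few counts or of uneven counts between libraries.

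Icam1, an adhesion molecule, had the smallest p of the response list. It was counted 10, 15, 30 and 31 times in water 1 to 4 and 3, 2, 5 and 1 times in zinc 1 to 4 (log2 fold change -2.85, SE 0.63, edgeR unadjusted p = 0.000299, adjusted p = 0.179). Every zinc count lay below the filter's minimum count of 10, so Icam1 entered the test only through its water libraries. With DESeq2, after the same filter, it passed the threshold (adjusted p = 0.0210). In edgeR with a library left out, its adjusted p reached 0.823 (without water 3). Duox2, an epithelial enzyme that makes hydrogen peroxide, was at 32.6, 44.5, 43.9 and 49.9 CPM with water and at 25.2, 25.1, 24.2 and 36.7 CPM with zinc. Only zinc 4 reached into the range of the water libraries, and the log2 fold change was -0.62 (SE 0.15, edgeR unadjusted p = 0.000929, adjusted p = 0.383). It passed in edgeR with no low-count filter (adjusted p = 0.0021) and without zinc 4, the overlapping library (adjusted p = 0.0406). Duox2 did not pass with library totals as the only scaling (edgeR adjusted p = 0.99996) or with DESeq2 (adjusted p = 0.0764).

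Another 3 genes are named after their values were seen. Duoxa2, the maturation factor of DUOX2, was at 1.90 to 4.81 CPM in water and 0.676 to 1.86 CPM in zinc libraries, without overlap (log2 fold change -1.24, SE 0.41, edgeR adjusted p = 0.852). Nos2, the inducible nitric oxide synthase, was at 2.50 to 6.49 CPM in water and 0 to 1.60 CPM in zinc libraries, also without overlap (log2 fold change -3.03, SE 0.89, edgeR adjusted p = 0.872). Nos2 reached the count filter in 4 water but only 2 zinc libraries, so its zinc libraries alone would not have brought it into the test. Its separation is therefore not independent of the filter. Retnlb, a resistin-like antimicrobial protein, was at 93.2 CPM in water 1 and at 5.23 to 17.5 CPM in the other water libraries, against 2.61 to 7.01 CPM with zinc (log2 fold change -3.05, SE 1.01, edgeR adjusted p = 0.998).

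**Figure D3:**
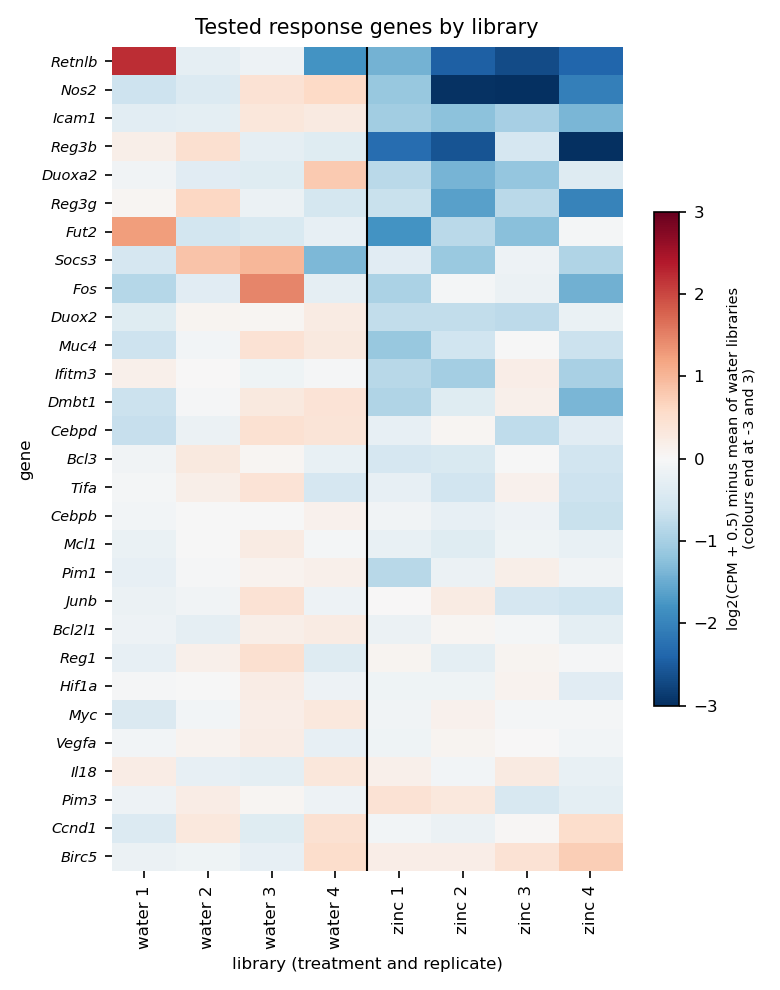
Tested genes of the response list (y axis, ordered by log2 fold change) in each of the 8 libraries (x axis); colour gives log2(CPM + 0.5) minus the mean of the 4 water libraries, blue for lower and red for higher. The top of the plot is blue in all 4 zinc libraries, Retnlb and Fut2 are reddest in water 1, and the lower part is pale throughout.

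Summed marker levels of other cell types were set beside these values. The summed level of 5 stem cell markers, most of it Olfm4, was 4515 to 5870 CPM in water and 3170 to 4616 CPM in zinc libraries, and the summed level of 9 enterocyte markers was 188 to 202 CPM and 186 to 255 CPM. For 7 goblet cell markers the sums were 8646 to 14770 CPM in water and 10801 to 14216 CPM in zinc libraries, and for 7 enteroendocrine markers 41.3 to 109 CPM and 45.0 to 87.9 CPM. The part of these cells in the Reg3 and response values was not tested. Water 4 held the highest sum of 6 tuft cell markers (121 CPM, against 14.1 to 82.1 CPM elsewhere). In the same library the acute-phase genes Saa1 and Saa2, of the response list, were at 3.93 and 2.71 CPM, while no other library exceeded 0.042 CPM for either, and both were too low elsewhere to be tested.

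Levels of different genes were compared per kilobase of merged exons within each library, with exact two-sided sign-flip permutation tests adjusted over 35 neighbouring pairs (smallest possible p 0.00781 for 8 libraries). Mean levels per kilobase over the 8 libraries were 10.2 ± 2.38 CPM (SD, n = 8) for Il22ra1, 8.68 ± 0.784 for Jak1, 5.33 ± 1.22 for Stat3, 4.75 ± 0.485 for Il10rb, 2.49 ± 0.324 for Tyk2, 1.28 ± 0.915 for Socs3 and 0.623 ± 0.543 for Fut2. In this order Jak1 was above Stat3 in 8 of 8 libraries and Il10rb above Tyk2 in 8 of 8 (exact permutation adjusted p = 0.0182 for both), and Tyk2 was above Socs3 in 7 of 8 (exact permutation adjusted p = 0.0432), a call that held without water 3 and was lost without any other single library. Il22ra1 and Jak1, Stat3 and Il10rb, and Socs3 and Fut2 did not differ beyond their spread. With the length of the canonical transcript in place of all merged exons, Jak1 was above Il22ra1, at a mean log2 ratio of Il22ra1 over Jak1 of -0.74, so the place of Il22ra1 depends on which transcripts these cells use.

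Within families, Il22ra1 came after Il13ra1 and Ifngr1 among the 15 tested receptor genes per kilobase, and Il10rb came after Ifngr2. Il22ra1 was above Ifngr2, the next in order, in 8 of 8 libraries (exact permutation adjusted p = 0.0182), and its difference from Ifngr1 did not exceed the spread (exact permutation adjusted p = 0.158). Jak1 led its family, at 2.19 times the level per kilobase of Jak2, which in turn was above Tyk2, each in 8 of 8 libraries (exact permutation adjusted p = 0.0182). Stat3 was second to Stat6 among the STAT genes, and Stat6 was higher per kilobase by a ratio of 1.51 in 8 of 8 libraries (exact permutation adjusted p = 0.0182). Socs3 came after Socs7, Socs4 and Socs2 among the 8 SOCS genes and could not be separated from Socs2 above it (exact permutation adjusted p = 0.0521) or Socs6 below it (exact permutation adjusted p = 0.836). With canonical transcript length, the mean log2 ratio of Socs3 over Socs6 turned to -0.47 but the 2 genes were still not separated (exact permutation adjusted p = 0.245), and the differences of Ifngr2 from both chains, of Jak2 from Tyk2 and of Stat6 from Stat3 no longer passed, while those of Ifngr1 from Il22ra1, Stat3 from Il10rb and Socs2 from Socs3 did.

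**Figure D4:**
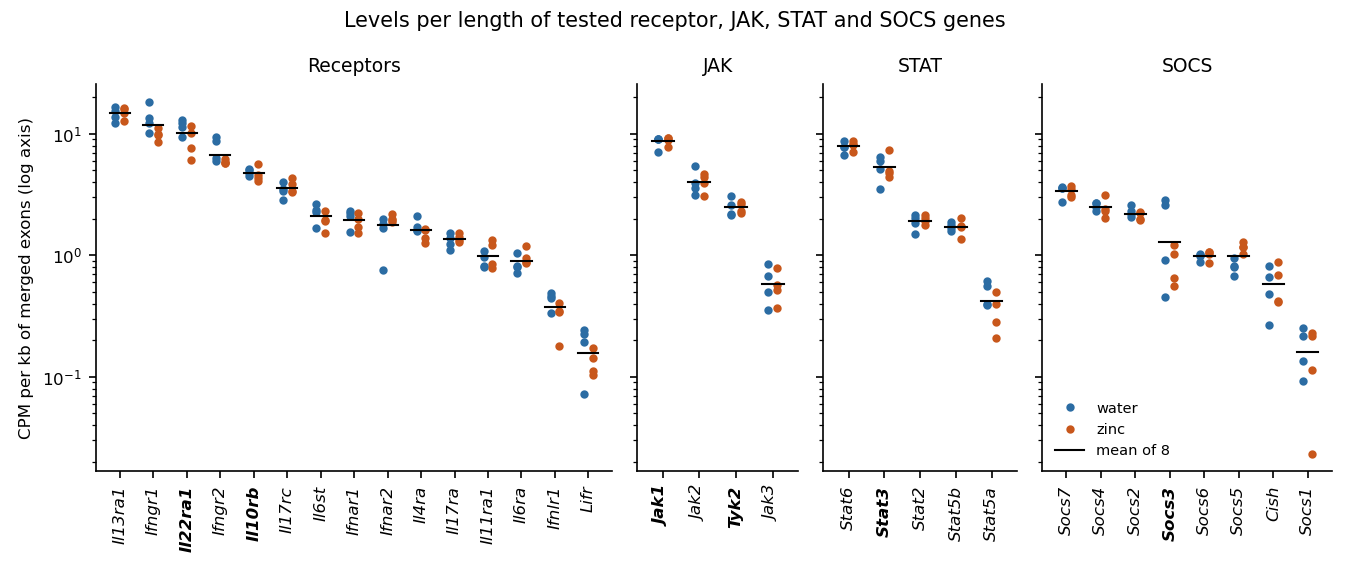
Levels per length of the tested receptor, JAK, STAT and SOCS genes (1 STAT gene is not shown), in CPM per kilobase of merged exons on a log axis; points are the 4 water and 4 zinc libraries, lines the mean of 8, and the 6 pathway members that belong to these families are in bold. Il22ra1 and Il10rb lie among the 5 highest receptor genes, and Socs3 has the widest scatter among the upper SOCS genes.

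Across the 8 libraries, 36 pairs among the 7 members, Reg3b and Reg3g were correlated on log2 CPM. Reg3b and Reg3g varied together (Pearson r = 0.91, exact permutation adjusted p = 0.0179; Spearman rho = 0.98, exact permutation adjusted p = 0.0143). The groups did not overlap in either gene, and r was 0.76 after the group means were removed and 0.69 without zinc 2 and zinc 4. Stat3 and Socs3 had r = 0.74 (exact permutation p = 0.0354, adjusted p = 0.631) and rho = 0.79 (exact permutation p = 0.0279, adjusted p = 0.503). This pair did not pass the correction over 36 pairs. Its r was 0.95 within water and 0.68 within zinc, 4 libraries each, and 0.89 without water 4 and zinc 3. Il22ra1 and Il10rb, which make up the receptor, had r = 0.35 (exact permutation p = 0.388, adjusted p = 0.899) and rho = 0.02 (exact permutation p = 0.977, adjusted p = 0.977). Here r was -0.89 within water, 0.49 within zinc and -0.67 without zinc 3 and zinc 4, so its sign turned with the libraries used.

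The genes whose log2 CPM followed a member most closely over the 8 libraries are given as a description. For Stat3 they were 1700052K11Rik (r = 0.97), D630039A03Rik (r = 0.96) and Nhsl1 (r = 0.95), and 23 genes in all had r above 0.9. For Socs3 they were Cwf19l1 (r = 0.93), Tgif2 (r = 0.92) and Tifa (r = 0.92), of 7 genes above 0.9, and for Fut2 they were Gm45495 (r = 0.95), Sass6 (r = 0.95) and D930048N14Rik (r = 0.94), of 12. Tifa, an adaptor of innate signalling, is itself on the response list.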

How the data were processed

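RNA-seq was done on sorted Paneth cells of 8 C57BL/6J mice, 4 per group, with groups and replicate numbers from the sample titles. The authors deposited raw counts per Ensembl gene ID, 1 column per library, without normalization. The submitters' processing notes name FastQC 0.12.0, STAR 2.7.0a, DESeq2 and mm39; the sources used here do not name the counting program or its handling of strand and multi-mapping reads. Symbols, merged exons and coordinates came from GENCODE M39 on GRCm39 (54749 of 55414 IDs matched).

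The effect of zinc was tested with edgeR 4.0.16 (R 4.3.3; filterByExpr with minimum count 10, TMM, robust quasi-likelihood F test, treatment only; SE from the fold change and F), with Benjamini-Hochberg adjustment over 11988 genes. DESeq2 1.42.0, other scalings and filters, removal of Defa genes, a replicate block and each library left out were alternatives. Python 3.11.15 was used for exact permutation tests. Library totals were 20760764 to 24117111, at which counting error alone gave the 7 members coefficients of variation of 2.22% to 14.5%.

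The members and lists were chosen with earlier results of these data known. Named were the 7 members, Reg3b and Reg3g; tested genes of the JAK, STAT, SOCS and receptor lists by level; of other lists the genes past the threshold or, failing that, the 3 with the smallest p; and for Stat3, Socs3 and Fut2 the 3 genes of highest r. Other named genes are said to be so or serve as markers or examples. Of the STAT genes, 1 is not reported here.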

Additional observations from a re-analysis of the deposited data

Results flagged for a closer look

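Among all 86 tested genes of the pathway lists, each group of 4 libraries was searched for 1 library far from the other 3 (a gap past Dixon's 95% limit, which chance gives in about 1 in 20 groups). Of 172 groups, 15 had one, and on the scale of library totals alone 1 of these 15 gaps (Duoxa2) was past that limit. Of the members, Jak1 was at 77.062 CPM in water 4 and at 97.5 to 98.7 CPM in the other water libraries, and Fut2 was at 10.507 CPM in water 1 and at 2.66 to 3.40 CPM in the others.

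Among the regulators, Socs7 was at 21.567 CPM in water 2 (28.0 to 28.7 CPM in the rest of its group), the phosphatase genes Ptpn1 and Ptpn6 at 16.324 and 6.0042 CPM in water 1 (20.7 to 21.2 and 8.78 to 9.09 CPM in the others), and Ndufa13 at 64.371 CPM in zinc 1 (56.6 to 57.9 CPM in the others).

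Among the response genes, Retnlb was at 93.191 CPM in water 1 (5.23 to 17.5 CPM in the other water libraries). Duoxa2 and Birc5 were at 4.8116 and 22.569 CPM in water 4 (1.90 to 2.38 and 12.9 to 14.1 CPM in the others). The immediate early genes Junb and Fos were both high in water 3, at 28.679 and 39.508 CPM (18.5 to 19.4 and 7.44 to 11.5 CPM in the others). Ifitm3 was at 77.987 CPM in zinc 3 (33.3 to 37.6 CPM in the rest of its group), and Duox2 was at 36.729 CPM in zinc 4 (24.2 to 25.2 CPM in the others). Of the fucosylation genes, Fuca2 was highest in replicate 1 of each group, at 82.308 CPM in water (55.8 to 59.3 CPM in the others) and 87.115 CPM with zinc (59.9 to 62.6 CPM in the others).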

How the results depend on the processing

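The count of members past the threshold was 0 under every alternative. Among the named genes' log2 fold changes, 307 of 328 values kept their direction and their side of the threshold. Of the genes in the pathway lists, 1 passed with library totals as the only scaling (Reg3g) and 1 with DESeq2 (Icam1, adjusted p = 0.0210), 2 without a low-count filter (Duox2 and Saa2), 2 with the replicate block (Duox2 and Muc4), and 0 to 1 with a library left out (Ifitm3 without zinc 3, Duox2 without zinc 4). Over all tested genes, 34 passed with DESeq2, 66 without a filter and 32 with the replicate block, against 10; with a library left out the count ran from 1 (without water 2) to 15 (without zinc 1), with 4 without water 3 and 3 without zinc 2. The cause was not tested.

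Directions near 0 turned. Tyk2 had a log2 fold change of 0.00027 with library totals and 0.0012 with the replicate block, and from -0.076 to 0.10 with a library left out. With a library left out, Jak1 ran from -0.055 to 0.077, Stat3 from -0.16 to 0.15, Lif from -0.23 to 0.40, Jak3 from -0.30 to 0.13 and Stat2 from -0.042 to 0.13. Among 153 ratios per length, 134 held; with canonical transcript length the log2 ratio of Il22ra1 over Jak1 was -0.74 and that of Socs3 over Socs6 -0.47, and with a library left out the latter ran from -0.13 to 0.25.

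Same-numbered water and zinc libraries had correlations of their deviations from the group means of 0.23, 5.5e-05, 0.13 and 0.26 over 11988 genes, so the numbers were not taken to pair the mice. Replicate 2 was the exception to each library correlating best with its own number. The Defa shares were alike within each number, 39.9% and 38.5%, 33.95% and 34.03%, 33.2% and 33.2%, and 29.2% and 27.9% for water and zinc; whether same-numbered libraries were handled together was not tested. Socs3 and Fut2 had 14 to 238 counts. Counting error alone gave them coefficients of variation of 8.65% to 14.5%, against 35.9% to 78.0% between libraries of a group. Each mouse gave a single library, so differences between mice and those of sorting or library preparation cannot be told apart.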
